A study of Arabidopsis thaliana with 40 samples.

Results

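The genes described here are 34 nuclear loci that encode parts of the photosynthetic machinery, chosen by their locus names and not by their measured values from the 32678 *Arabidopsis thaliana* loci of the expression table. They comprise 13 LHCB and 4 LHCA genes for the light-harvesting antennae, 4 RBCS genes for the small subunit of Rubisco, 8 PSA genes for subunits of photosystem I and 5 PSB genes for proteins of photosystem II. All 34 were rows of the table.

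The samples were 40 cells labelled as root quiescent center (QC) cells, sorted by fluorescence from digested roots of WOX5:GFP plants in the Col-0 background at 5 days after stratification. WOX5:GFP is a reporter of the QC, whose few cells divide seldom and are surrounded by the stem cells of the root tip. The RNA was amplified by CEL-Seq, which tags the poly(A) end of each transcript with a barcode for the cell. The study's methods describe seedlings grown on vertical agar plates with Murashige and Skoog salts and sucrose, under a daily cycle of light and dark. There was 1 group, with no shoot, leaf or dark-grown sample to set it against. The labels named no plant or batch for a cell.

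A profile was matched by barcode to 39 of the 40 cells. Counts recovered from the deposited log2 values totalled 57655 in the shallowest profile (QC cell 4) and 7431708 in the deepest (QC cell 22). With the profiles put in order of depth, no count in any of the 32771 rows fell at any of the 38 steps, so a deeper profile contained everything counted in those before it. They were treated as 1 sample, no test was made across them, and levels are given for the deepest profile as CPM (counts per 1000000 counts at *Arabidopsis* loci). Whether a low level came from few cells or from little RNA in each cell cannot be told apart. Intervals are exact Poisson intervals at the 95% level, or exact binomial (Clopper-Pearson) intervals for shares, and cover counting error only. In the deepest profile 51.3% of all loci and 60.3% of nuclear protein-coding loci were above 0. Of 5 QC markers, 2 were above 0 there, WOX5 at 10.6 CPM and SCR at 28.5 CPM. PLT1, PLT2, BBM and the GFP reporter were listed at 0. Markers of stele, atrichoblast and xylem were above 0 for 4 of 4 genes, with a summed level of 47.4 CPM. The QC markers summed to 39.2 CPM, of which SCR, described in the paper as both endodermal and QC, held 28.5 CPM. The part of stele, atrichoblast, xylem or endodermis cells in the levels below was not tested.

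In green tissue, LHCB and LHCA proteins bind chlorophyll and pass light energy to photosystem II and photosystem I. Electrons then run from water, split at photosystem II, through photosystem I to ferredoxin, and Rubisco fixes carbon dioxide in the stroma. The nuclear genes for these proteins are among the most abundant messages of leaves and are induced by light. Root plastids, in contrast, are mostly non-green and draw on imported sugars.

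Transcripts of most of these genes were found in the QC cell profiles, at low levels. In the deepest profile 27 of the 34 loci were above 0 (79.4%), where 51.3% of all loci and 60.3% of nuclear protein-coding loci were. None reached 100 CPM, as 5.41% of all loci and 6.35% of nuclear protein-coding loci did. The level of 10 CPM was reached by 6 genes (17.6%), against 27.8% of all loci and 33.2% of nuclear protein-coding loci. The 34 loci together held 1745 counts, or 235 CPM (95% interval 224 to 246). Their median level was 3.16 CPM. The median was 0.673 CPM over all loci and 2.56 CPM over nuclear protein-coding loci. Among loci above 0, the median was 4.31 CPM for these genes and 12.1 CPM for all loci. More of these genes than of loci at large were above 0, and those above 0 had a lower median.

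**Figure D1:**
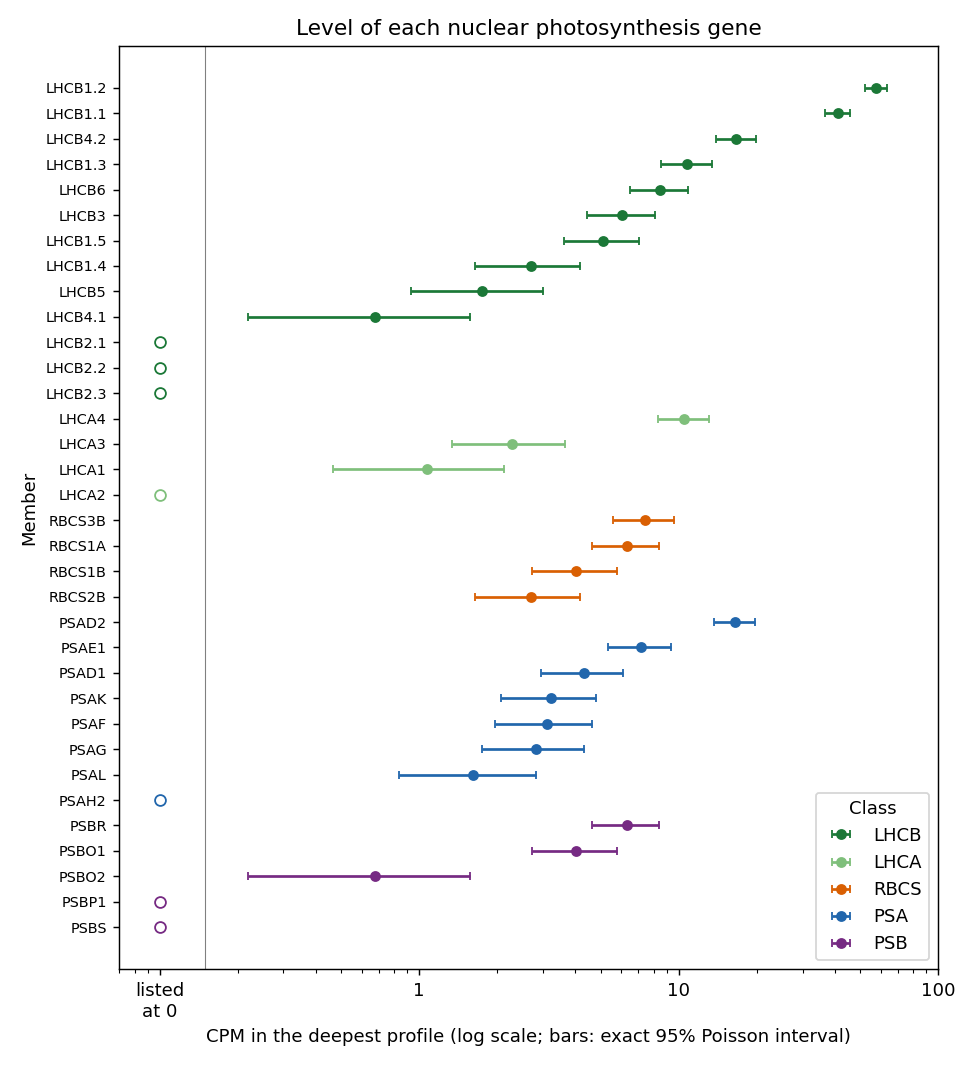
Level of each of the 34 genes in the deepest profile, in CPM on a log axis, grouped by class. Filled points are loci above 0 with exact 95% Poisson intervals, and open points are the 7 loci listed at 0. LHCB1.2 at 57.6 CPM and LHCB1.1 at 41.0 CPM stand above the other loci, none of which exceeded 16.7 CPM.

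The LHCB class made up most of the signal. Its 13 loci held 1121 counts, 64.2% of the counts of the set (95% interval 61.9% to 66.5%). Of them 10 were above 0, where 51.3% of all loci and 60.3% of nuclear protein-coding loci were. The PSA class followed with 287 counts (16.4%, 14.7% to 18.3%), the RBCS class with 152 (8.71%, 7.43% to 10.13%), the LHCA class with 103 (5.90%, 4.84% to 7.11%) and the PSB class with 82 (4.70%, 3.75% to 5.80%). Only the intervals of LHCA and PSB overlapped. The classes differ in size, which bears on these sums. The median level per locus was 5.18 CPM for RBCS, 5.11 for LHCB, 3.16 for PSA, 1.68 for LHCA and 0.673 for PSB. The mean per locus was 11.6 CPM for LHCB, 5.11 for RBCS, 4.83 for PSA, 3.46 for LHCA and 2.21 for PSB. LHCB1.2 with 428 counts and LHCB1.1 with 305 held most of the LHCB counts. With both left out, a setting chosen after the data were seen, LHCB held 38.3% of the counts that remained. CEL-Seq reads come from transcript ends, so counts were not divided by transcript length in these shares. Per kb of transcript the shares were 60.1% for LHCB, 20.8% for PSA, 8.09% for RBCS, 5.34% for LHCA and 5.60% for PSB, so LHCA and PSB changed places and the others kept their order.

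LHCB1 encodes the major antenna protein of photosystem II, and its 5 loci held 871 counts (117 CPM, 95% interval 110 to 125). In leaves this family is a standard readout of light-driven nuclear gene expression. LHCB1.2 (AT1G29910, CAB3), LHCB1.1 (AT1G29920, CAB2) and LHCB1.3 (AT1G29930, CAB1) lie side by side on chromosome 1, each in 1 exon, at chr1:10472280-10473502 (minus strand), chr1:10474656-10475969 (minus) and chr1:10477885-10479114 (plus) in TAIR10.1. LHCB1.4 (AT2G34430) and LHCB1.5 (AT2G34420) are neighbours on chromosome 2. The coding sequences of the chromosome 1 loci were from 95.6% to 96.4% identical to each other, so the ability to tell their reads apart bears on every value below. The last 60 coding bases, stop codon included, are shown from the RefSeq TAIR10.1 genome for that reason, 5′ to 3′, with capitals where a base differs from LHCB1.1. They lie at chr1:10475089-10475148 (minus strand) for LHCB1.1, chr1:10472443-10472502 (minus) for LHCB1.2, chr1:10478815-10478874 (plus) for LHCB1.3, chr2:14525559-14525618 (plus) for LHCB1.4 and chr2:14522716-14522775 (minus) for LHCB1.5.
LHCB1.1: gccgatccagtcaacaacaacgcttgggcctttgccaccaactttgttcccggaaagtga
LHCB1.2: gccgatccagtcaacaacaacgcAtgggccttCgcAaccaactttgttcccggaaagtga
LHCB1.3: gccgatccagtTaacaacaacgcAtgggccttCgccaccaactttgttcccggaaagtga
LHCB1.4: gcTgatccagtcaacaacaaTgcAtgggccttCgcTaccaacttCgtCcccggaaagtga
LHCB1.5: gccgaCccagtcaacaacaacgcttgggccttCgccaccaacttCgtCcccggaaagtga

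LHCB1.2 and LHCB1.3 each differ from LHCB1.1 at 3 of these 60 bases, LHCB1.5 at 4 and LHCB1.4 at 7. Beyond the stop codon the transcripts diverge. Of the 251 windows of 50 bases in the last 300 bases of each annotated transcript, 0 in LHCB1.1, LHCB1.3, LHCB1.4 and LHCB1.5, and 16 in LHCB1.2, occurred without mismatch in a transcript of another locus. Over whole transcripts the share was 10.6% of windows in LHCB1.2, 20.5% in LHCB1.1 and 17.0% in LHCB1.3. Reads from the annotated ends would thus mostly be distinct between the copies, whereas reads from coding sequence would in part be shared. The read length and the treatment of shared reads are not stated for these libraries, and 50 bases is the read length of the study's other libraries.

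LHCB1.2 had the highest level of all 34 genes, 428 counts or 57.6 CPM (95% interval 52.3 to 63.3), above 90.8% of all loci. Its recovered count over the 39 profiles was 0 at the lowest, 130 at the median and 428 at the highest, and it was above 0 in 31 profiles. LHCB1.1 followed with 305 counts or 41.0 CPM (36.6 to 45.9). Its count was 0 at the lowest, 82 at the median and 305 at the highest, and 23 profiles were above 0. The ratio of LHCB1.2 to LHCB1.1 was 1.403 by counts (1.21 to 1.63) and 1.51 per kb of transcript, and the intervals of their levels did not overlap.

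LHCB1.3 was much lower than its neighbours, with 80 counts or 10.8 CPM (8.54 to 13.4), yet it was above 0 in all 39 profiles. The lowest count was 2, the median 20 and the highest 80. LHCB1.1 exceeded LHCB1.3 by 3.81 times by counts (2.97 to 4.94) and by 3.57 times per kb. On chromosome 2, LHCB1.5 had 38 counts (5.11 CPM) and LHCB1.4 had 20 (2.69 CPM), each above 0 in 27 profiles. LHCB1.5 lies wholly within a long non-coding RNA gene on the other strand that is no row of the table. It also overlaps AT2G34410 on that strand by 99 bases, and that gene had 75 counts. LHCB1.3 overlaps AT1G29940 on the opposite strand by 108 bases, and that gene had 26 counts. Strand use in the counting is not stated, so reads of these loci cannot be told apart. Of the 34 genes, 13 overlap another annotated gene, 12 of them on the opposite strand, and not every overlap is named here.

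Both leading genes entered the profiles abruptly. LHCB1.1 was listed at 0 in the 16 shallower profiles, the deepest of which held 1788686 counts, and then stood at 74 counts in the next, QC cell 12, with 1957507. At the rate of its later counts, 75.5 counts were expected in the last profile in which it was listed at 0. LHCB1.2 was at 0 in the 8 shallowest profiles and entered with 26 counts, with 18.5 expected in the profile before. At least 10 counts were expected in the profile before entry for these 2 of the 25 genes of the set that entered after the shallowest profile (8%), and for 5.92% of all loci that did so. Genes with few counts could not reach this limit. Just below it, PSAD1 was at 0 with 8.82 counts expected and PSBO1 was at 0 with 8.06 expected. A listed 0 therefore sets no upper limit on a gene's level, and none is given here. After entry the counts of LHCB1.1 and LHCB1.2 rose with depth, as the plot of counts against total count shows.

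**Figure D2:**
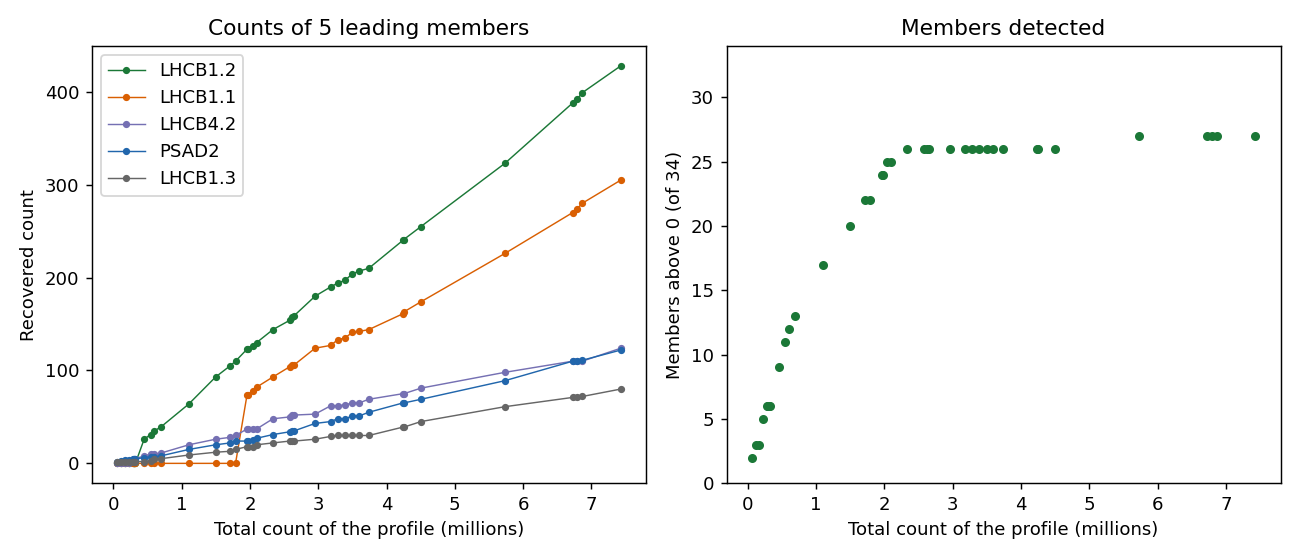
Left, recovered counts of LHCB1.2, LHCB1.1, LHCB4.2, PSAD2 and LHCB1.3 in each of the 39 nested profiles against the total count of the profile. LHCB1.1 runs along 0 and then steps to 74 counts. Right, the number of the 34 genes above 0 in each profile against its total count, which runs from 2 in the shallowest profile to 27 in the deepest.

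The counts added between successive profiles were compared for copies that could share reads. For the ribosomal RNA loci AT3G41768 and AT2G01010, whose counts are near-equal, the added CPM had a Pearson correlation of 1.00 over 38 steps. For LHCB1.1 and LHCB1.2 it was 0.64 over the 22 steps after both had entered. For LHCB1.1 and LHCB1.3 it was 0.15, for LHCB1.2 and LHCB1.3 0.37 over 30 steps, for LHCB1.2 and PSAD2, of another family, 0.23 over 30 steps, and for LHCB1.1 and LHCB4.2 -0.21. The median counts added at a step were 5 for LHCB1.1 and 5.5 for LHCB1.2, against 5249.5 and 5248 for the ribosomal RNA loci. With so few counts per step, the correlation of the LHCB1 copies cannot show how many reads they share. These steps share a library and a depth and the counts are sparse, so the values are a description only.

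The other antenna proteins of photosystem II were uneven. All 3 LHCB2 genes, LHCB2.1 (AT2G05100), LHCB2.2 (AT2G05070) and LHCB2.3 (AT3G27690), were listed at 0 in all 39 profiles, although LHCB2 protein forms trimers together with LHCB1 in leaves. LHCB2.3 overlaps AT3G27700 on the opposite strand by 595 bases, and that gene had 205 counts. LHCB3 (AT5G54270), the remaining trimer protein, had 45 counts (6.06 CPM) and was above 0 in 38 profiles. It shares 186 bases with AT5G54280 on the other strand, which had 88 counts.

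LHCB4, LHCB5 and LHCB6 encode the minor antenna proteins that link the trimers to the photosystem II core. LHCB4.2 (AT3G08940) had 124 counts or 16.7 CPM (13.9 to 19.9), with a median over profiles of 37 and a lowest count of 0. Its paralog LHCB4.1 (AT5G01530) had 5 counts (0.673 CPM), so LHCB4.2 held 96.1% of the counts of the pair (91.2% to 98.7%), with no window of 50 bases shared between them. LHCB4.2 overlaps AT3G08943 on the opposite strand by 44 bases, and that gene had 122 counts. LHCB6 (AT1G15820) had 63 counts (8.48 CPM) and LHCB5 (AT4G10340) had 13 (1.75 CPM). A long non-coding RNA gene that is no row of the table overlaps LHCB6 by 358 bases on the other strand.

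The LHCA proteins form the antenna belt of photosystem I, and here LHCA4 led. LHCA4 (AT3G47470) had 78 counts or 10.5 CPM (8.30 to 13.1), was above 0 in 36 profiles and had a median count of 25. LHCA3 (AT1G61520) had 17 counts (2.29 CPM) and LHCA1 (AT3G54890) had 8 (1.08 CPM), with 0 counts in the profile of median depth. LHCA2 (AT3G61470) was listed at 0. LHCA1 and LHCA4 proteins pair in the belt, as LHCA2 and LHCA3 do. The intervals of LHCA1 (0.465 to 2.12 CPM) and LHCA4 did not overlap.

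All 4 Rubisco small subunit genes were above 0, where 60.3% of nuclear protein-coding loci were, at levels from 2.69 to 7.40 CPM. RBCS1A (AT1G67090), on chromosome 1, is the most expressed copy in leaves, and the B copies lie in a row on chromosome 5: RBCS3B (AT5G38410) at chr5:15376988-15378642, RBCS2B (AT5G38420) at chr5:15380907-15382071 and RBCS1B (AT5G38430) at chr5:15383167-15385320, all on the minus strand in TAIR10.1. Their last 60 coding bases are printed to show how little separates the B copies, with capitals where a base differs from RBCS1B. They lie at chr5:15384350-15384409 for RBCS1B, chr5:15381203-15381262 for RBCS2B and chr5:15377501-15377560 for RBCS3B.
RBCS1B: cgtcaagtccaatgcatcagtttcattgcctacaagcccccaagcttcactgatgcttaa
RBCS2B: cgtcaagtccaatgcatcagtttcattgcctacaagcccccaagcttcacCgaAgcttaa
RBCS3B: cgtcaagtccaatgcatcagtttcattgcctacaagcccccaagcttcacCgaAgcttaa

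RBCS2B and RBCS3B had the same 60 bases, and each differs from RBCS1B at 2 of them. In the last 300 bases of the transcripts, 0 of 251 windows were shared with another locus for any of the 4 copies. Over whole transcripts the share was 18.4% of windows in RBCS3B, 21.4% in RBCS2B, 14.0% in RBCS1B and 1.48% in RBCS1A. The RBCS1B transcript used has 1183 bases after the stop codon, so its last 300 bases lie far from the coding end. Reads from outside the annotated ends could in part be shared between copies. RBCS3B had 55 counts or 7.40 CPM (5.58 to 9.63), RBCS1A 47 or 6.32 CPM (4.65 to 8.41), RBCS1B 30 or 4.04 CPM (2.72 to 5.76) and RBCS2B 20 or 2.69 CPM (1.64 to 4.16). The ratio of RBCS3B to RBCS1A was 1.17 (0.778 to 1.77), so the order of these copies was within counting error. In contrast, RBCS3B exceeded RBCS2B by 2.75 times (1.62 to 4.84) and by 2.17 times per kb. RBCS3B held 36.2% of the family's counts (28.6% to 44.4%). Each copy was above 0 in 27 to 31 profiles.

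Among photosystem I subunits PSAD2 led, a stromal protein at the docking site of ferredoxin. PSAD2 (AT1G03130) had 122 counts or 16.4 CPM (13.6 to 19.6) and was above 0 in all 39 profiles, with counts of 2 at the lowest, 27 at the median and 122 at the highest. Its paralog PSAD1 (AT4G02770) had 32 counts or 4.31 CPM, and the ratio was 3.81 by counts (2.57 to 5.82) and 4.52 per kb. Per kb of transcript the level of PSAD2 was 17.2 CPM, above LHCB4.2 at 13.0 CPM and below LHCB1.1 at 31.2 and LHCB1.2 at 47.1 CPM. PSAE1 (AT4G28750), which sits beside PSAD at the docking site, had 53 counts (7.13 CPM), the fifth highest level of the set per kb. A gene on the opposite strand that is no row of the table overlaps PSAE1 by 436 bases.

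The other PSA genes were low. PSAK (AT1G30380) had 24 counts (3.23 CPM), PSAF (AT1G31330), which binds plastocyanin, 23 (3.09 CPM), PSAG (AT1G55670) 21 (2.83 CPM) and PSAL (AT4G12800) 12 (1.61 CPM), and their intervals overlapped. PSAG shares 479 bases with a gene on the other strand that is no row of the table. PSAH2 (AT1G52230), where light-harvesting complexes dock during state transitions, was listed at 0. It overlaps AT1G52240 on the other strand by 174 bases, and that gene had 353 counts. The PSA genes as a class held 28.1 CPM in the profile of median depth (QC cell 13) and 42.7 CPM in the counts added after it. LHCB had 151 CPM in both, RBCS 22.9 and 19.5, LHCA 14.8 and 13.5, and PSB 10.5 and 11.2.

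Of the 5 photosystem II genes 3 were detected, a share near the 60.3% of nuclear protein-coding loci. PSBR (AT1G79040), a small protein that helps bind the oxygen-evolving proteins, had 47 counts or 6.32 CPM (4.65 to 8.41) in 30 profiles. PSBO1 (AT5G66570), the major form of the protein that stabilizes the manganese cluster, had 30 counts (4.04 CPM), and its paralog PSBO2 (AT3G50820) had 5 (0.673 CPM) in 5 profiles. PSBO1 held 85.7% of the counts of the pair (69.7% to 95.2%). PSBP1 (AT1G06680), another oxygen-evolving protein, and PSBS (AT1G44575), the sensor of photoprotective energy dissipation, were listed at 0 in every profile.

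When the 27 detected genes were ordered by level, the intervals of neighbours overlapped at all but 3 of 26 places. The exceptions were LHCB1.2 above LHCB1.1, LHCB1.1 above LHCB4.2, and PSAD2 above LHCB1.3. Detection over profiles followed depth and differed widely between genes. The number above 0 was 2 at the lowest, 25 at the median and 27 at the highest, and 2 genes were above 0 in every profile (5.88%, against 15.3% of all loci and 18.4% of nuclear protein-coding loci). The summed level was 54.9 CPM at the lowest, 227 at the median and 235 at the highest, and the low values are those of profiles in which LHCB1.1 and LHCB1.2 were listed at 0. The profile of median depth and the counts added after it share no counts. Between them LHCB1.2 had 62.0 and 55.9 CPM, LHCB1.1 39.1 and 41.8, LHCB4.2 17.6 and 16.3, and PSAD2 12.9 and 17.8.

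The rest of the photosynthetic pathway was examined through lists of genes picked by function, and each list's share above 0 is to be read against 51.3% of all loci and 60.3% of nuclear protein-coding loci. Of 15 other photosystem genes, 7 were above 0 (46.7%), near that background. The highest were PSBX at 4.44 CPM, PSAE2 at 3.23 CPM and PSBW at 2.96 CPM, all small subunits. Listed at 0 were LHCB4.3, LHCA5, LHCA6, PSAH1, PSBQ1, PSBQ2, PSBY and PSBP2. PSAH1 and PSAH2 were thus both at 0, as were PSBP1, PSBP2, PSBQ1 and PSBQ2 of the oxygen-evolving complex. The large subunit of Rubisco and the reaction centre proteins are encoded in the plastid genome, and all 133 chloroplast rows, rbcL, psbA, psaA and psaB included, were listed at 0. So were all 279 rows of organelle genomes, the chloroplast rows among them. The libraries were made from poly(A) RNA, and the ribosomal RNA locus AT3G41768 gained a median of 5249.5 counts per step between profiles. Why the organelle rows were at 0 was not tested.

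Of the Calvin cycle genes, 7 of 13 were above 0 (53.8%), between the 51.3% of all loci and the 60.3% of nuclear protein-coding loci. The highest were PDTPI, plastid triose phosphate isomerase, at 38.9 CPM (34.5 to 43.6) and PGK1, phosphoglycerate kinase, at 16.6 CPM (13.8 to 19.7), both above 0 in all 39 profiles. CP12-2, a regulatory protein of the cycle, was at 6.19 CPM. PRK, GAPA2, GAPB, SBPASE, FBA1 and FBA2 were at 0. The remaining genes, RCA at 3.77 CPM, GAPA1 at 2.96 CPM, CP12-1 at 2.56 CPM and CFBP1 at 1.21 CPM, are named to complete the list after their values were seen.

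**Figure D3:**
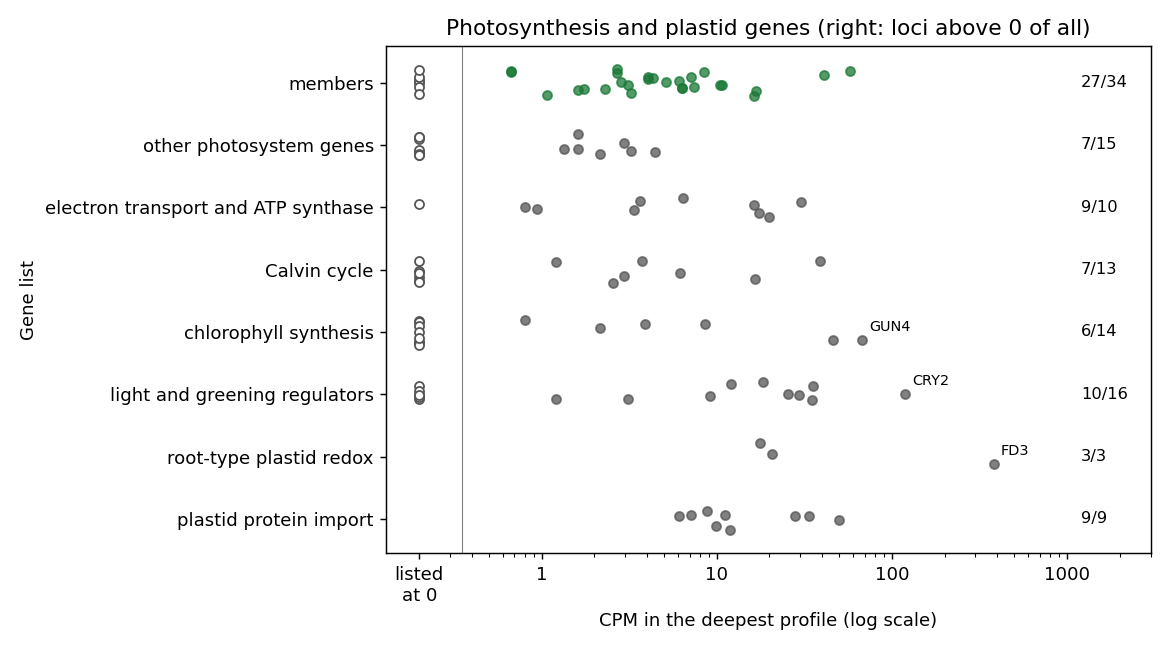
Level of each gene in the deepest profile, in CPM on a log axis, for the 34 genes described here (green) and 7 lists of related genes (grey). Open points are loci listed at 0, vertical scatter within a row has no meaning, and the figures at the right give loci above 0 of all loci in the list. FD3 at 382 CPM lies above every other gene shown.

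For chlorophyll synthesis, 6 of 14 genes were above 0 (42.9%, against 51.3% of all loci and 60.3% of nuclear protein-coding loci). GUN4, which aids the insertion of magnesium, was highest at 67.4 CPM (61.6 to 73.6), and HEMA1, which starts tetrapyrrole synthesis for both heme and chlorophyll, was at 45.9 CPM (41.1 to 51.0). CHLD, a subunit of magnesium chelatase, was at 8.61 CPM. The genes at 0 were CHLI2, CRD1, PORA, PORB, PORC, DVR, CHLG and CAO, and all but CHLI2 act after magnesium insertion. CHLM, which acts just after that step and is named here after its value was seen, was at 3.90 CPM. GUN4 also entered abruptly, with 169 counts where 137 were expected in the profile before.

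Of 16 regulators of light responses and greening, 10 were above 0 (62.5%), near the 60.3% of nuclear protein-coding loci. The highest were the photoreceptors CRY2 at 119 CPM (112 to 128) and PHYA at 35.4 CPM (31.2 to 39.9) and HY5, a bZIP factor that activates light-induced genes, at 35.0 CPM (30.9 to 39.5). Listed at 0 were GLK1 and GLK2, the activators of photosynthesis genes in green tissue, GNC and CGA1, the GATA factors of greening, and PIF1 and PIF5, which repress greening in the dark. PIF4 at 3.09 CPM and PIF3 at 1.21 CPM, of the same family, were above 0 and are named here after their values were seen.

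Plants carry separate ferredoxins for leaves and roots, and here the root form dominated. FD3, which carries electrons for nitrogen assimilation and other reactions in root plastids, had 2841 counts or 382 CPM (368 to 397). FD1 had 224 counts (30.1 CPM) and FD2, the main leaf form, 129 (17.4 CPM). FD3 exceeded FD1 by 12.7 times by counts (11.1 to 14.6) and 10.9 times per kb, and FD2 by 22.0 times (18.5 to 26.5) and 21.9 times per kb. It held 1.63 times the counts of all 34 photosynthesis genes together (1.53 to 1.73). The ferredoxin reductases differed less. The root forms RFNR1 and RFNR2, at 20.6 and 17.6 CPM, exceeded the leaf forms LFNR1 and LFNR2, at 19.9 and 3.63 CPM, by 1.62 times (1.34 to 1.97) and by 1.46 times per kb. LFNR2 was above 0 in 10 profiles and entered abruptly, as did ATPG of the plastid ATP synthase, which is named for that reason. In the list of electron transport and ATP synthase genes, which holds the leaf forms, 9 of 10 were above 0 (90%, against 51.3% of all loci and 60.3% of nuclear protein-coding loci), and PETC, the Rieske protein, was at 0.

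All 9 genes of plastid protein import were above 0, where 51.3% of all loci and 60.3% of nuclear protein-coding loci were. The receptors TOC159, needed for import of photosynthetic proteins, and TOC132 and TOC120, which favour other plastid proteins, were at 49.9, 27.9 and 12.0 CPM. TOC159 exceeded the sum of the others by 1.25 times by counts (1.07 to 1.47), but per kb of transcript the ratio was 0.804, so its direction depended on the scale. TOC75-III, the channel, was at 33.6 CPM. TOC33, more abundant in green tissue, and TOC34 were at 8.75 and 9.96 CPM, and their ratio was 0.878 (0.620 to 1.24) by counts and 1.22 per kb.

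**Figure D4:**
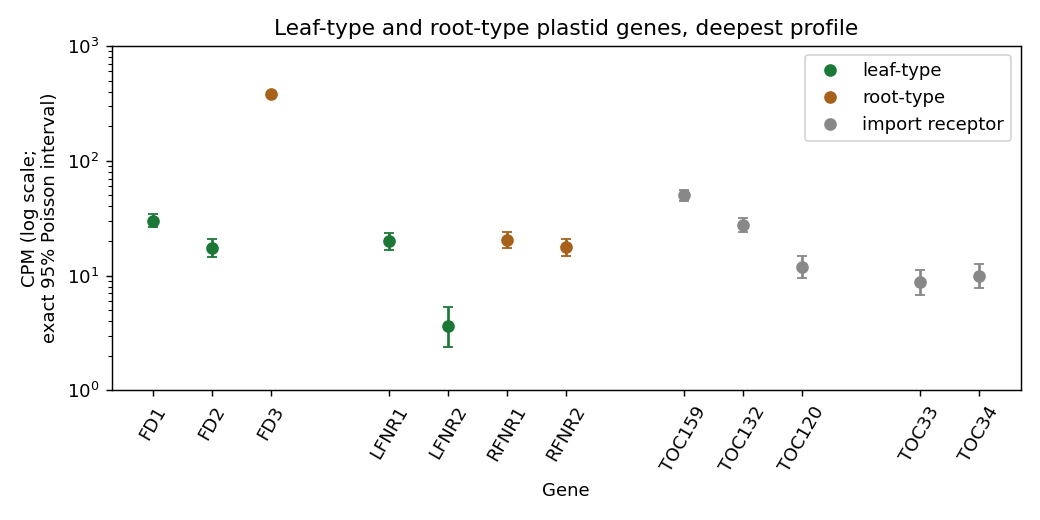
Level of leaf-type (green) and root-type (brown) ferredoxin and ferredoxin reductase genes and of plastid import receptors (grey) in the deepest profile, in CPM on a log axis with exact 95% Poisson intervals. FD3 at 382 CPM exceeds FD1 at 30.1 CPM and FD2 at 17.4 CPM, and LFNR2 at 3.63 CPM is the lowest.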

How the data were processed

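RNA of 40 sorted cells was amplified by CEL-Seq. The deposited values were log2 of read counts that the authors normalized to depth, plus 1. The submitters' processing notes name Bowtie2 and TAIR10. The study's methods describe exon counting with ngsutils, in which reads with several locations counted in part and thinly covered genes were dropped, for cells picked by hand. Whether this holds for the CEL-Seq table is not given in the sources used here. Counts, CPM and levels per length would all change with them.

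Counts were recovered as whole multiples of 1 step per profile, each value within 0.000844 of a step, with a smallest count above 0 of 2. In simulated data 100% of values were recovered. That simulation used the recovered steps and the same smallest count of 2 that the recovery assumes. It therefore cannot show that the step or the smallest count is right. CPM was taken over *Arabidopsis* loci, without ERCC and reporter rows. The 34 genes and the 7 lists (80 loci) were chosen by function, with earlier results of these data known. All 34 genes are named, and from each list the 3 highest loci, those at 0, the leaf and root forms of ferredoxin and its reductase and 5 import receptors (TOC159, TOC132, TOC120, TOC33 and TOC34), with any other gene marked where it is named. Transcripts came from the RefSeq TAIR10.1 annotation, taking for each gene the one with the longest coding sequence, and lengths per kb are theirs. Sequence and gene models were matched by locus name, and the table gives no coordinates. One barcode had no column and its sample was not analysed here. No test was made, since the nested profiles count as 1 sample. Alternatives changed the detection limit, the CPM total, the pseudocount, the depth, the counts used and the length scaling. Python 3.11.15, numpy 2.4.6, pandas 2.3.3, scipy 1.17.1, biopython 1.88 and matplotlib 3.10.9 were used.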

Additional observations from a re-analysis of the deposited data

Results flagged for a closer look

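Rows of ERCC spike-in RNA, which no comparison above used, held 4.97% of all counts of the deepest profile (exact 95% binomial interval 4.96% to 4.99%), in 70 of 91 rows above 0. No sample was a control for this share.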

How the results depend on the processing

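A number of genes was taken as moved beyond 1.5 times its value, a share or a summed level outside its 95% counting interval, and the order of the genes below a Spearman correlation of 0.9. The median was taken as moved outside the interval of its members. Leaving aside the setting chosen after the data were seen, 63 values stayed within this tolerance and 22 moved. At a limit of 10 CPM, 6 of the 34 genes were detected in the deepest profile and 1 in every profile. The lists then had 0 of 15 other photosystem, 4 of 10 electron transport and 2 of 13 Calvin cycle genes. Of chlorophyll genes 2 of 14 reached that level, and of import genes 5 of 9. In the deepest profile 27.8% of all loci and 33.2% of nuclear protein-coding loci did. At 10 counts, or with the counts added between successive profiles, 0 genes were above the limit in every profile. Thinning to 10000 counts (medians over 100 draws) left 2 genes detected, 2 at 100 CPM or more and a summed level of 200 CPM. At that depth any count above 0 reaches 100 CPM, so the number at 100 CPM or more was fixed by the setting. The median log2(CPM + 1) was 0, against 2.06 unthinned. Thinning to 50000 counts left 7 genes and a median of 0. The summed level was 223 CPM with ERCC and reporter rows in the total and 273 CPM without the 4 leading ribosomal RNA loci.

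Per kb of transcript, LHCB held 60.1% and PSA 20.8%. In the profile of median depth PSA held 12.4%, LHCB1.2 52.8% of LHCB1 counts and PSBO1 100% of PSBO counts. Without LHCB1.1 and LHCB1.2, which entered abruptly, a setting chosen after the data were seen, all 6 values moved. The sum was 136 CPM and the shares were LHCB 38.3%, PSA 28.4%, RBCS 15.0%, LHCA 10.2% and PSB 8.10%, and LHCB still led. No cause of these shifts was tested, beyond what a setting fixes by its construction. No share of a leading LHCB2 locus exists, since all 3 loci were at 0. No paired analysis was possible because there was 1 group.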
